A study of Mus musculus with 24 samples.

Results

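The splicing factors described here are the 37 mouse genes whose names mark them as heterogeneous nuclear ribonucleoproteins (20 hnRNP genes, from Hnrnpa0 to Hnrnpul2), serine- and arginine-rich splicing factors (11 Srsf genes), the SR-like proteins Tra2a and Tra2b, or CDC-like kinases (Clk1 to Clk4). They were chosen by name among the 38924 genes in the files, with 1 pseudogene name left out, and all 37 had enough reads to be tested in every comparison. The RNA came from spinal cords of 24 mice aged 8 weeks, taken with RiboTag, in which Cre switches on an HA-tagged copy of the ribosomal protein RPL22 so that an antibody to HA pulls down the ribosomes of the Cre-expressing cells with their mRNA. Cre was expressed from the gene for choline acetyltransferase (ChAT), the enzyme that makes acetylcholine, so the tagged cells are cholinergic neurons, motor neurons among them.

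The 4 groups held 6 mice each, on a B6.CgxB6.129 background. The C201R mice with Cre had the genotype Rpl+/-;Chat+/-;C201R+/- and thus carried 1 C201R copy of Gars, the gene of glycyl-tRNA synthetase. The WT mice with Cre were Rpl+/-;Chat+/-;C201R+/+, with 2 normal copies of Gars. The C201R mice without Cre were Rpl+/-;Chat+/+;C201R+/-, and the WT mice without Cre were Rpl+/-;Chat+/+;C201R+/+. All 24 mice carried the tag allele, and pulldowns without Cre served as the negative control, that is, RNA that sticks to beads or antibody without a tagged ribosome. Dominant mutations of the human gene GARS1 cause a form of Charcot-Marie-Tooth disease, a neuropathy of peripheral axons, and the comparison of C201R with WT addresses what the mutation does to ribosome-bound mRNA in these neurons.

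hnRNPs bind newly made RNA in the nucleus and take part in its splicing, packaging and export, and several of them also accompany mRNA into axons. SR proteins bind exonic sequences and recruit the splicing machinery, and hnRNPs and SR proteins often act in opposite directions on the same exon. Tra2 proteins have SR-like domains and activate exons, and CLK kinases phosphorylate SR proteins and so release them from nuclear speckles. Many genes of both families control their own mRNA through alternative exons that lead to nonsense-mediated decay, or through introns that are kept in the transcript; Clk1 transcripts with kept introns are known to be held in the nucleus.

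Library totals were 12.11 M (12110691 expected counts) to 21.03 M (21034480) in C201R mice with Cre, 13.52 to 28.29 M in WT mice with Cre, 8.9 to 14.3 M in C201R mice without Cre and 9.14 to 13.42 M in WT mice without Cre. Mitochondrial genes took 3.03 to 15.8% and 1.24 to 17.1% of counts in the C201R and WT mice with Cre, and 35.2 to 49.6% and 42.1 to 55.5% in the C201R and WT mice without it. Reads assigned to Gm26924, a gene model in ribosomal RNA sequence, made up 8.01 to 43.3% in C201R mice with Cre, 7.45 to 30.8% in WT mice with Cre, and 1.6 to 7.6% and 1.72 to 4.63% in the C201R and WT mice without Cre. Libraries of C201R mouse 14003-1 and WT mouse 14701-9, both with Cre, stood apart with the highest mitochondrial share of their group. Chat itself ranged from 50.0 to 116 CPM (a normalised read count, scaled to library size by edgeR's TMM) in C201R mice with Cre and from 51.1 to 62.0 CPM in WT mice with Cre, against 0.871 to 3.33 CPM in C201R and 1.60 to 8.91 CPM in WT mice without Cre. Gars reads, which do not separate the mutant from the normal allele, ranged from 144 to 205 CPM in C201R mice and from 80.3 to 106 CPM in WT mice with Cre (log2 change 0.80 ± 0.12, SE, edgeR adjusted p = 0.002). The 24 libraries fall into series 1 (7 libraries) and series 2 (17 libraries) by library number, and the labels do not say what the numbers stand for; the tests carry the series as a term. The labels give each library its own mouse number.

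In the ribosome pulldowns with Cre, 12 of the 37 splicing factor genes rose in C201R against WT mice, none fell and 25 were not called, at an adjusted p under 0.05 in edgeR's quasi-likelihood test over all genes; over the 14634 genes tested, 2.29% rose and 1.82% fell. By group, 8 of 20 hnRNP genes, 2 of 11 SR genes, both Tra2 genes and none of the 4 Clk genes rose, and scaled by library totals alone no member was called. The 12 were the hnRNP genes Hnrnpa1, Hnrnpa2b1, Hnrnpa3, Hnrnpab, Hnrnpdl, Hnrnph1, Hnrnph3 and Hnrnpk, the SR genes Srsf1 and Srsf5, and both Tra2 genes. The log2 change was positive in 34 of the 37 genes, with a median of 0.42 and a range from -0.31 to 1.46, beside a median of -0.006 over all genes tested. Summed over the 37 genes, the level was 3195 to 5026 CPM in C201R mice with Cre (median 3759), against 2155 to 2463 CPM in WT mice with Cre (median 2388), so that the 6 C201R mice all lay above the 6 WT mice. Outside mitochondrial genes and Gm26924, the 37 genes took 0.549 to 0.648% of counts in C201R mice with Cre and 0.348 to 0.435% in WT mice with Cre. Pulldowns report RNA pooled over the tagged cells, so a change in the number or kind of cells and a change of RNA per cell cannot be told apart.

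**Figure D1:**
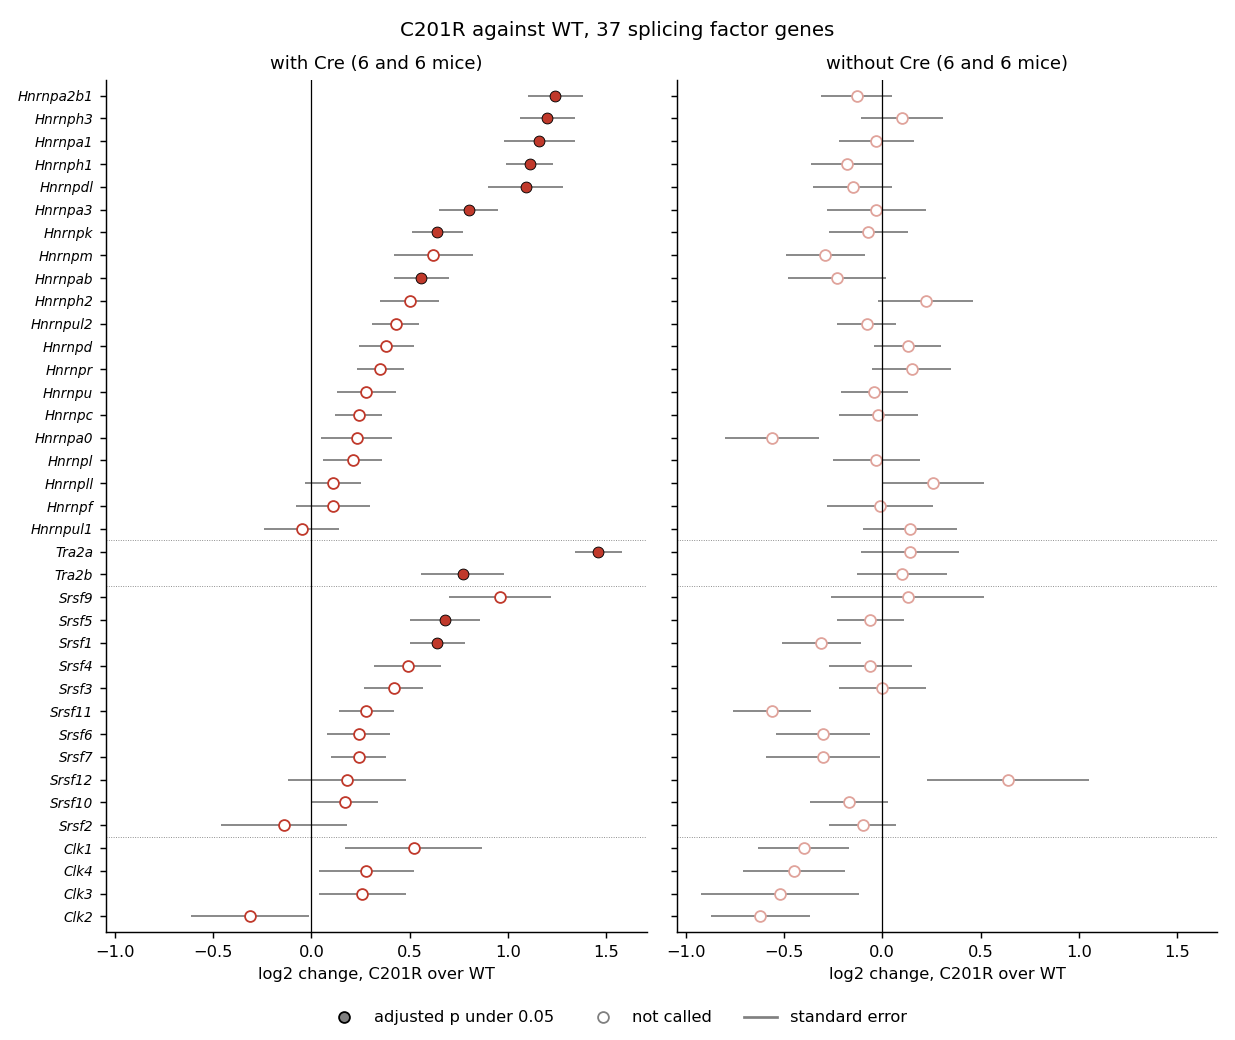
Log2 change of C201R over WT for each of the 37 genes (x axis, with its standard error as a bar), in pulldowns with Cre (left panel) and without Cre (right panel); filled points passed an adjusted p of 0.05. With Cre 12 genes are filled, all to the right of 0, and without Cre none is filled.

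Tra2a, which activates exons by binding GAA-rich sequence, had the largest change of the family. Its lowest, median and highest levels were 70.6, 84.7 and 104 CPM in C201R mice with Cre, against 26.4, 31.2 and 33.1 CPM in WT mice with Cre. No C201R mouse overlapped a WT mouse with Cre, and the 6 WT mice lay close together. The difference was 1.46 ± 0.12 on the log2 scale (SE, n = 6 and 6, 2.74-fold), with an edgeR adjusted p of 8.6e-06. Its paralog Tra2b had 32.1, 39.9 and 68.3 CPM in C201R mice with Cre and 16.2, 26.2 and 29.7 CPM in WT mice with Cre, and rose by 0.77 ± 0.21 (edgeR adjusted p = 0.049). Without Cre, Tra2a had 17.2, 33.2 and 62.7 CPM in C201R mice and 22.4, 29.0 and 40.4 CPM in WT mice, so the groups overlapped.

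Hnrnpa2b1 encodes an abundant hnRNP that binds UAG-rich RNA and carries mRNAs along neuronal processes. It had 432, 628 and 826 CPM (lowest, median and highest) in C201R mice with Cre, against 198, 235 and 353 CPM in WT mice with Cre. The groups did not overlap, and the change was 1.24 ± 0.14 (2.36-fold, edgeR adjusted p = 1.2e-04). Hnrnpa1, its close relative and a general antagonist of SR proteins, had 138, 175 and 245 CPM in C201R mice with Cre and 50.2, 90.4 and 101 CPM in WT mice with Cre, again without overlap (1.16 ± 0.18, edgeR adjusted p = 0.0026). Hnrnpa3, of the same A/B group, had 243, 309.8 and 385 CPM in C201R mice with Cre and 123, 191 and 234 CPM in WT mice with Cre. Its change of 0.80 ± 0.15 (edgeR adjusted p = 0.0088) was smaller, yet the lowest C201R mouse was still above the highest WT mouse. Hnrnpab had 90.2 to 160.2 CPM in C201R mice with Cre and 71.1 to 81.9 CPM in WT mice with Cre, and rose by 0.56 ± 0.14 (edgeR adjusted p = 0.037). Hnrnpa0, the remaining A-type gene, was not called (0.23 ± 0.18, edgeR adjusted p = 0.54).

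The H/F group binds runs of G, and 2 of its 4 genes rose. Hnrnph1 had 263, 312 and 425 CPM in C201R mice with Cre, against 133, 149 and 152 CPM in WT mice with Cre (1.11 ± 0.12, edgeR adjusted p = 1.0e-04). Hnrnph3 had 50.2, 74.5 and 105 CPM in C201R mice with Cre, against 26.5, 29.9 and 38.0 CPM in WT mice with Cre (1.20 ± 0.14, edgeR adjusted p = 2.7e-04). In both genes every C201R mouse was above every WT mouse. Hnrnph2, the X-linked copy, changed by 0.50 ± 0.15 (edgeR adjusted p = 0.089) and Hnrnpf by 0.11 ± 0.19 (edgeR adjusted p = 0.80), and neither was called.

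Hnrnpdl, a relative of Hnrnpd that binds AU-rich RNA, had 86.4, 116 and 197 CPM in C201R mice with Cre, against 46.3, 56.6 and 70.5 CPM in WT mice with Cre (1.09 ± 0.19, edgeR adjusted p = 0.0049). Hnrnpd itself was not called (0.38 ± 0.14, edgeR adjusted p = 0.15). Hnrnpk, a KH-domain protein that binds C-rich RNA, had 214, 239 and 358 CPM in C201R mice with Cre and 149, 164 and 179 CPM in WT mice with Cre, and rose by 0.64 ± 0.13 (edgeR adjusted p = 0.015). Neither Hnrnpdl nor Hnrnpk overlapped between the genotypes with Cre. Of the other hnRNP genes, Hnrnpul2, which belongs with Hnrnpu to the scaffold-attachment group, missed the threshold (0.43 ± 0.12, edgeR adjusted p = 0.064) although its lowest C201R value of 129.7 CPM lay above its WT values of 117 to 126 CPM. Hnrnpc, a nuclear hnRNP that binds runs of U, changed by 0.24 ± 0.12 and Hnrnpl, which binds CA repeats, by 0.21 ± 0.15, and neither was called.

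**Figure D2:**
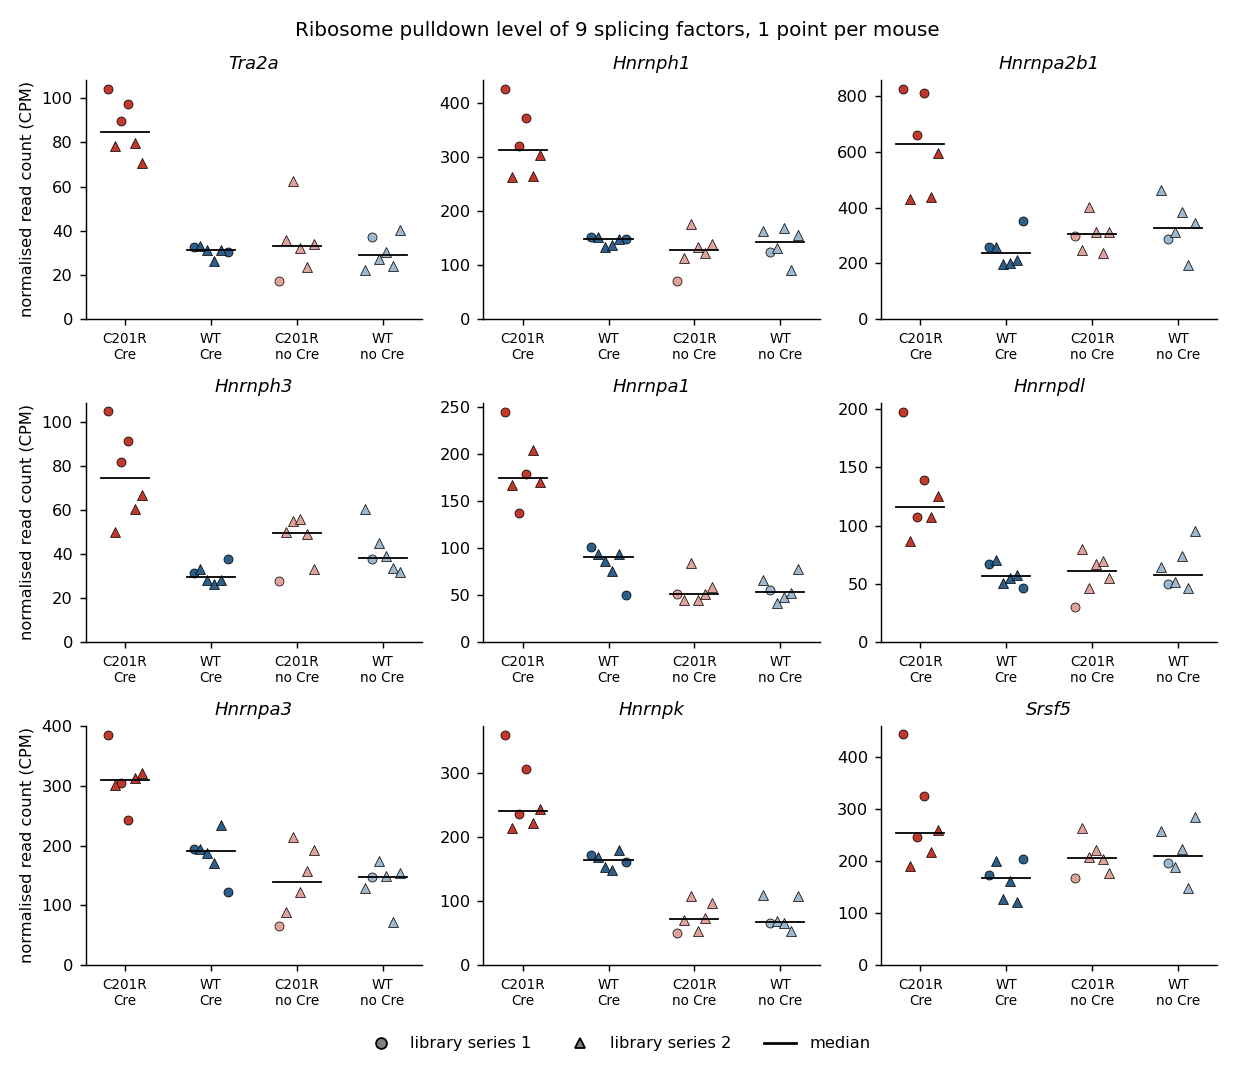
Normalised read count (CPM, y axis from 0) of 9 splicing factors in the 4 groups, with 1 point per mouse, circles for library series 1, triangles for series 2 and a bar at the median of 6. In 8 of the 9 genes every C201R mouse with Cre is above every WT mouse with Cre; Srsf5 overlaps.

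Among the SR genes, 2 of 11 rose. Srsf5 had 190.4, 253 and 445 CPM in C201R mice with Cre, against 121, 168 and 204 CPM in WT mice with Cre (0.68 ± 0.18, edgeR adjusted p = 0.044), and the lowest C201R value lay below the highest WT value. Srsf1, the founding member of the family, had 68.9, 111 and 122 CPM in C201R mice with Cre and 61.0, 68.8 and 84.2 CPM in WT mice with Cre (0.64 ± 0.14, edgeR adjusted p = 0.02). Srsf9 had a larger fitted change of 0.96 ± 0.26 at 5.53 to 20.5 CPM in C201R and 3.11 to 5.55 CPM in WT mice with Cre, and missed the threshold (edgeR adjusted p = 0.051). Srsf2 changed by -0.14 ± 0.32, and its lowest level with Cre was 12.2 CPM in C201R mouse 14003-1, beside a group median of 84.2 CPM. The other 7 SR genes had changes between 0.17 and 0.49 and were not called. None of the 4 Clk kinases was called, with changes from -0.31 ± 0.30 for Clk2 to 0.52 ± 0.35 for Clk1.

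In all, 12 of the 37 genes had 6 C201R mice above all 6 WT mice with Cre and none had them below, beside 1.63% and 1.32% of the 14634 genes tested. 10 of these were among the 12 called genes; Srsf1 and Srsf5 were called with overlapping groups, and Hnrnpr and Hnrnpul2 did not overlap and were not called. The 12 called genes were positive in each library series on its own, from 0.70 to 1.67 in series 1 (3 C201R and 2 WT mice) and from 0.38 to 1.33 in series 2 (3 C201R and 4 WT mice). Both series were in the fit that called these 12 genes, so their signs in each series are no independent test. Series 2 alone called 12 members, 11 of them among these 12, and series 1 alone called none. Without the libraries of mice 14003-1 and 14701-9, 16 members rose, including all 12. Fitted with the Gm26924 share as a covariate, 5 members rose (Tra2a, Hnrnph1, Hnrnpa2b1, Hnrnph3 and Hnrnpa1). Calls over all genes moved as well, from 601 in the main fit to 1370 in series 2 alone. They were 1950 (954 higher, 996 lower) without mice 14003-1 and 14701-9, and 122 with the covariate. Scaled by library totals alone, which include Gm26924 and the mitochondrial reads, 32 genes were called in all, 24 higher and 8 lower, with no member among them. Under that scaling the median over all genes moved to -0.264 and that of the 37 genes to 0.10, with 23 positive and all 12 genes named above still positive (0.24 to 1.18). Leaving out C201R mouse 14703-4 or WT mouse 14002-6 left 7 members called.

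To show the start regions of the 3 members with the smallest p, their promoters were taken from RefSeq (GRCm38.p6), from 250 bases before to 50 bases after the first start listed for each gene, 5′ to 3′ on the gene's strand. Capitals mark matches, on either strand, to the CCAAT box (CCAAT), the core of the cyclic AMP response element (TGACG), the C/EBP-ATF response element (TGATGNAA), the GC box (GGGCGG), the ETS site (CCGGAAG), the TATA box (TATAAA) and the YY1 site (AAGATGG), and matches may overlap. Tra2a is shown at chr6:49264003-49264302 (minus strand), Hnrnpa2b1 at chr6:51469845-51470144 (minus strand) and Hnrnph1 at chr11:50376740-50377039 (plus strand), where Hnrnpa2b1 has 2 and Hnrnph1 has 5 annotated starts. In GENCODE M21, on the same build, Tra2a spans chr6:49243924-49264033, Hnrnpa2b1 chr6:51460932-51469894 and Hnrnph1 chr11:50376990-50386528, so all 3 windows reach across the annotated 5′ end.
Tra2a: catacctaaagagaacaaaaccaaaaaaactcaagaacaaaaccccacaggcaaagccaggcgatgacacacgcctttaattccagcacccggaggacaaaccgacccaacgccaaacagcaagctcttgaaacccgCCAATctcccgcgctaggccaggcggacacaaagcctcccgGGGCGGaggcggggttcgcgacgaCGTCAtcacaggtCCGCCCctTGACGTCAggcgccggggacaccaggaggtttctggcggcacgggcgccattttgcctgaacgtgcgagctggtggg
Hnrnpa2b1: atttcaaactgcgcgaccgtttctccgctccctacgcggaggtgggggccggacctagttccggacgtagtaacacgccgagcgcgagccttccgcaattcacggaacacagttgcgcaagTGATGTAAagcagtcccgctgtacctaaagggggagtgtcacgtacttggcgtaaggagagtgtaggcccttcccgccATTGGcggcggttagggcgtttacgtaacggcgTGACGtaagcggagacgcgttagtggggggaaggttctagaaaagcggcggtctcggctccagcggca
Hnrnph1: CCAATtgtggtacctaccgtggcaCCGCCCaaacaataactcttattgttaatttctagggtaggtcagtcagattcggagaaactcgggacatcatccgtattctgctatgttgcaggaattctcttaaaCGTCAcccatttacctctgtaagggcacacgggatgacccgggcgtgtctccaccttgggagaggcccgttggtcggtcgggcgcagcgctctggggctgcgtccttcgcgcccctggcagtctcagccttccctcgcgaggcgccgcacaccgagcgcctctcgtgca
All 3 windows hold a CCAAT box and a TGACG match, and none holds a TATA box. Of the other 4 Hnrnph1 windows, all hold TGACG and 2 hold no CCAAT box. Of the 37 members 34 matched a RefSeq promoter, and shares count a gene where any of its listed starts holds the motif. TGACG was in 23 of these 34 (67.6%), against 23.05% of 27025 genes, and in 8 of the 12 called members; in the first listed start alone it was in 22 of 34, against 21.02% of genes. GGGCGG was in 29 of 34 (85.3%), against 38.2% of genes, and CCAAT in 19 of 34 (55.9%), against 41.1%. CCGGAAG was in 7 of 34 (20.6%, against 9.93%), TATAAA in 4 (11.8%, against 15.7%), and AAGATGG in 1 (2.94%, against 7.28%). TGATGNAA was in Hnrnpa2b1 alone (2.94%, against 4.51%). Of the 12 called members, GGGCGG was in 10, CCAAT in 8, CCGGAAG and TATAAA in 1 each, and AAGATGG in none. The members' first listed promoters had a median GC content of 65.2%, against 52.7% over all genes. Such a difference in base composition can bear on the share of every motif listed, TGACG among them, and shares at matched composition were not taken. The 27025 genes were not limited to genes with enough reads to be tested here, as the members were, and shares over the tested genes were not taken. These are matches of letters and not shown to be bound.

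Without Cre no member was called between C201R and WT, in edgeR, DESeq2 or limma-voom, with 0% of the 14400 genes tested called in either direction in edgeR, and 3 of the 37 members had an unadjusted p under 0.05, beside 455 genes in all. Log2 changes ran from -0.62 to 0.64 with a median of -0.06, and 26 of the 37 were negative. The smallest p-values belonged to Srsf11 (-0.56 ± 0.20), Clk2 (-0.62 ± 0.25), Hnrnpa0 (-0.56 ± 0.24) and Clk1 (-0.40 ± 0.23), each with an edgeR adjusted p of 1.00. For no member did the 6 C201R mice without Cre all lie above or all below the 6 WT mice without Cre, beside 0.118% and 0.0694% of genes.

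Whether the genotype difference itself depended on Cre was tested as an interaction over all 24 libraries. 2 members passed, Hnrnpa2b1 (1.42 ± 0.27, edgeR adjusted p = 0.019) and Hnrnph1 (1.31 ± 0.26, edgeR adjusted p = 0.031), both higher, and none was lower; 0.0993% of the 16109 genes tested were higher and 0.0310% lower. Hnrnpa1 (1.18 ± 0.28, edgeR adjusted p = 0.089), Tra2a (1.30 ± 0.31, edgeR adjusted p = 0.10), Hnrnpdl (1.29 ± 0.32, edgeR adjusted p = 0.12) and Hnrnph3 (1.12 ± 0.29, edgeR adjusted p = 0.14) had estimates above 1 and were not called. The estimate was positive in 33 of the 37 genes, with a median of 0.71 beside 0.050 over all genes. The cholinergic markers had positive interaction estimates too, in 8 of 8 measured with a median of 0.92, and none was called. Without Cre they were negative between C201R and WT in 6 of 6 measured (median -1.05), 3 with an unadjusted p under 0.05 and none called; their part in the interaction was not tested. Hnrnpa2b1 had 237, 305 and 403 CPM in C201R mice without Cre and 194, 328 and 463 CPM in WT mice without Cre, and Hnrnph1 had 70.2, 129 and 176 CPM in C201R mice and 90.9, 143 and 168 CPM in WT mice without Cre, so that both overlapped there. These 2 calls depended on which libraries were in the fit. No member was called without C201R mice 14003-2, 14003-3 or 14702-8 (no Cre), C201R mouse 14703-4 (Cre), WT mice 14002-6, 14702-3 or 14004-3 (Cre), or WT mouse 14004-4 (no Cre), each left out alone. 1 member was called without C201R mouse 14003-4 (Cre), WT mice 14004-6 or 14703-5 (Cre), or WT mice 14702-1, 14702-4 or 14702-6 (no Cre), and 4 without C201R mouse 14004-8 (no Cre). Series 2 alone, library totals alone or a covariate for Gm26924 also left none, while DESeq2 called 6 and limma-voom 4. Over all genes the main fit called 21, DESeq2 115 and limma-voom 79.

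Pulldowns with Cre were also compared with pulldowns without Cre inside each genotype. Counts were scaled to the other genes, so a member called higher or lower changed relative to the genes of its library. The amount of background RNA in a pulldown with Cre was not measured. The 2 comparisons with Cre share no mice, but each shares its mice with the genotype comparisons above. In C201R mice 17 members were higher with Cre and 5 lower, where 30.5% of the 14335 genes tested were higher and 26.3% lower. In WT mice 6 were higher and 11 lower, where 27.7% of the 14264 genes tested were higher and 32.8% lower. The median log2 change of the 37 genes was 0.50 in C201R mice (0.065 over all genes) and -0.24 in WT mice (-0.097 over all genes). Scaled by library totals alone the splits were 24 higher and 2 lower in C201R mice and 21 higher and 4 lower in WT mice, with all-gene medians of 0.644 and 0.839, and when the fit in C201R mice carried each library's Gm26924 share, 10 members were called.

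The members with the largest rises with Cre were hnRNP genes. Hnrnpab rose by 2.22 ± 0.30 in C201R mice (edgeR adjusted p = 8.0e-06) and by 1.26 ± 0.19 in WT mice (edgeR adjusted p = 4.0e-05); without Cre it had 11.9 to 38.7 CPM in C201R and 17.03 to 41.1 CPM in WT mice. Hnrnpa0 rose by 1.99 ± 0.24 in C201R and 0.92 ± 0.21 in WT mice, Hnrnpk by 1.81 ± 0.24 and 0.92 ± 0.17, and Hnrnph2 by 1.44 ± 0.24 and 1.01 ± 0.21. Hnrnpc rose by 1.27 ± 0.24 in C201R and 0.86 ± 0.14 in WT mice, and the SR gene Srsf7 by 1.29 ± 0.26 and 0.60 ± 0.22, so these 6 genes were called higher in both genotypes. Hnrnpa1 rose by 1.76 ± 0.21 and Tra2a by 1.40 ± 0.28 in C201R mice, while in WT mice they changed by 0.42 ± 0.19 and -0.17 ± 0.17 and were not called. Hnrnpa2b1 and Hnrnph3 were called in both genotypes with opposite signs: Hnrnpa2b1 rose by 0.90 ± 0.20 in C201R mice (edgeR adjusted p = 0.001) and fell by 0.64 ± 0.19 in WT mice (edgeR adjusted p = 0.0091), and Hnrnph3 rose by 0.67 ± 0.26 (edgeR adjusted p = 0.032) and fell by 0.61 ± 0.19 (edgeR adjusted p = 0.0097). With edgeR's RLE scaling in place of TMM, the Hnrnph3 rise in C201R mice was 0.49 and not called (edgeR adjusted p = 0.11), while Hnrnpa2b1 stayed called (0.72). Under RLE 15 members were higher in C201R mice instead of 17, with an all-gene median of -0.121. Scaled by library totals alone, the WT estimates of Hnrnpa2b1 and Hnrnph3 turned to 0.27 and 0.33, not called, as did those of Srsf5 (0.32, against -0.58 with TMM), Srsf4 (0.29, against -0.63 with TMM) and Hnrnpm (0.04, against -0.85 with TMM), while all 5 lay below the all-gene median of 0.839 under that scaling.

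Clk1 and Clk4 had the lowest estimates of the 37 genes in both genotypes. Clk1 had 8.77, 11.4 and 17.04 CPM in C201R mice with Cre, against 22.02, 54.6 and 59.1 CPM in C201R mice without Cre, and fell by 2.01 ± 0.30 on the log2 scale (edgeR adjusted p = 1.9e-05). In WT mice Clk1 had 3.46, 6.19 and 15.6 CPM with Cre, against 42.7, 65.5 and 83.0 CPM without, and fell by 3.11 ± 0.34 (edgeR adjusted p = 2.2e-06). Clk4 had 4.98 to 15.2 CPM with Cre and 20.6 to 78.7 CPM without Cre in C201R mice, and 7.61 to 13.8 CPM with Cre and 46.6 to 92.4 CPM without Cre in WT mice. In neither genotype did the Clk1 or Clk4 values with and without Cre overlap, and the share of all genes without such overlap was not taken. Of all genes tested, 30.5% were called higher and 26.3% lower in C201R mice, and 27.7% and 32.8% in WT mice. Clk2 was also lower in both genotypes (-1.32 ± 0.34 in C201R and -1.93 ± 0.26 in WT mice), and Clk3 was lower in WT mice (-1.15 ± 0.34) but not called in C201R mice (0.00 ± 0.35). Srsf11 (-0.90 ± 0.20 in C201R and -1.94 ± 0.20 in WT mice) and Hnrnpl (-0.85 ± 0.24 and -1.37 ± 0.19) were the other members lower in both. Scaled by library totals alone, Clk1, Clk4, Clk2 and Srsf11 remained called in WT mice (-2.19, -2.08, -1.01 and -1.02), and Clk3 (-0.28, edgeR adjusted p = 0.55) and Hnrnpl (-0.48, edgeR adjusted p = 0.15) lost their calls. In C201R mice Clk1 (-1.38) and Clk4 (-1.18) remained called under that scaling, and Clk2 (-0.72, edgeR adjusted p = 0.18), Srsf11 (-0.30, edgeR adjusted p = 0.49) and Hnrnpl (-0.28, edgeR adjusted p = 0.54) did not.

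**Figure D3:**
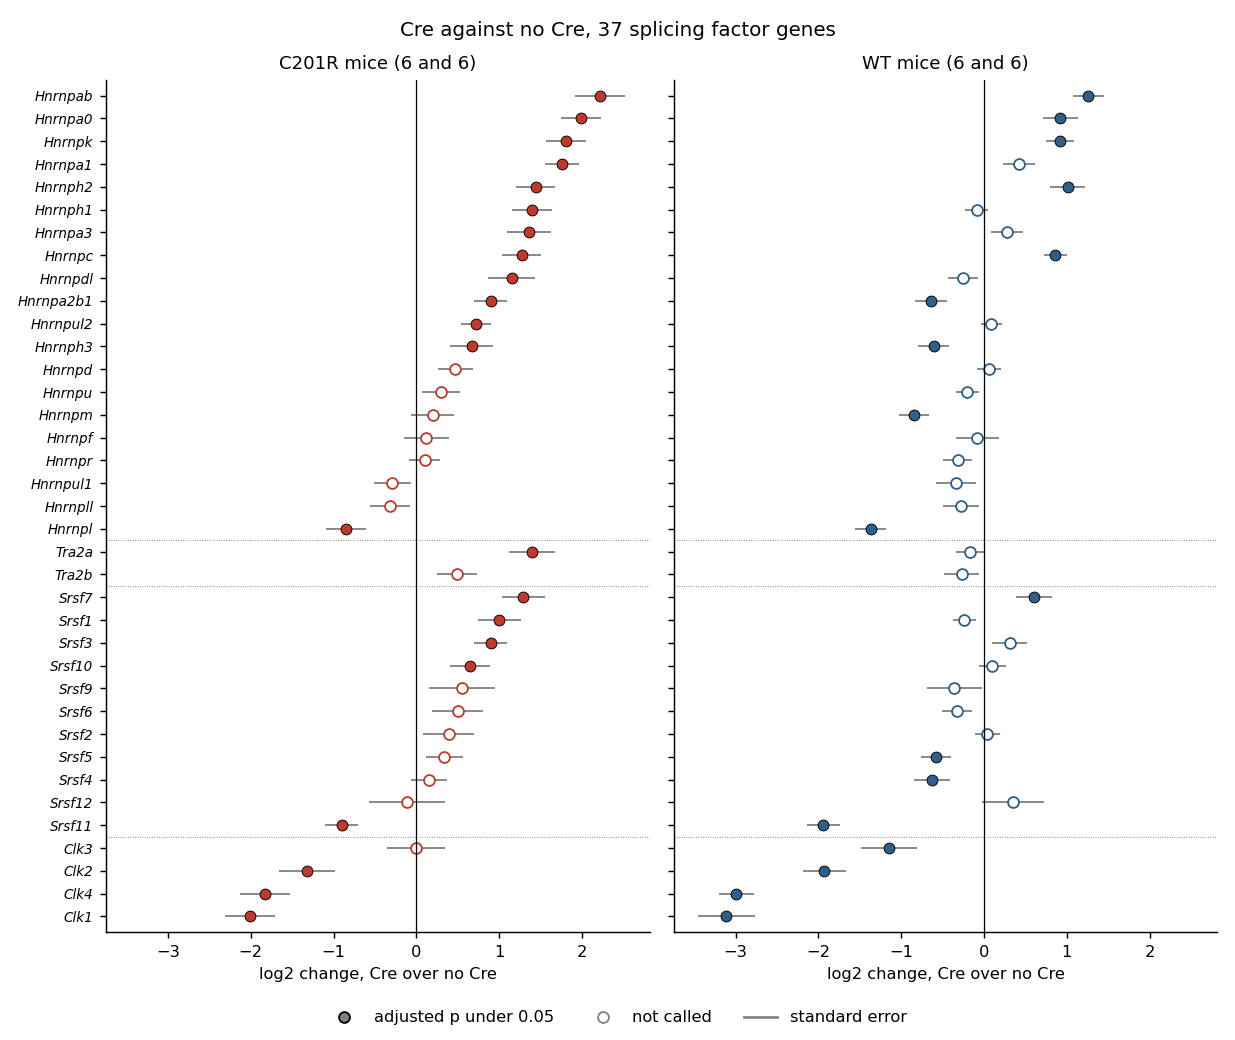
Log2 change of Cre over no Cre for each of the 37 genes (x axis, standard error as a bar), in C201R mice (left panel) and WT mice (right panel), filled where the adjusted p was under 0.05. In C201R mice 17 genes are filled to the right of 0 and 5 to the left, and in WT mice 6 to the right and 11 to the left.

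The make-up of the family is shown per length, as shares of the 37 genes' summed TPM (a relative abundance that divides counts by transcript length) inside each library. hnRNP genes made up 70.2 ± 2.10% of the family in C201R mice with Cre, 66.1 ± 1.27% in WT mice with Cre, 59.2 ± 2.87% in C201R mice without Cre and 57.1 ± 1.75% in WT mice without Cre (SD, n = 6 each). Clk kinases made up 1.29 ± 0.350% and 1.74 ± 0.476% in C201R and WT mice with Cre, against 7.17 ± 1.54% and 9.17 ± 1.62% in C201R and WT mice without Cre. The Tra2 pair took 3.88 ± 0.363% in C201R mice with Cre and 2.67 ± 0.199% in WT mice with Cre, with ranges that did not overlap (3.37 to 4.25% and 2.29 to 2.84%). 5 genes, Srsf5, Hnrnph1, Hnrnpa2b1, Hnrnpk and Hnrnpa3, held 45.8 ± 3.36% of the family in C201R mice with Cre, 38.7 ± 1.36% in WT mice with Cre, 33.6 ± 1.43% in C201R mice without Cre and 32.4 ± 2.07% in WT mice without Cre. These 5 were the genes of highest mean TPM over all 24 libraries, so groups with high TPM weighed more in the choice. Without Cre, Hnrnpk ranked 7 in C201R and 11 in WT mice, and Hnrnpa3 ranked 8 and 10. The order of the groups in this share can thus follow partly from the choice. All shares of this paragraph are described and were not tested. Hnrnph1, Hnrnpa1, Hnrnpa3 and Srsf4 had no library with a whole-number count (within 0.005), while 12 genes were whole in all 24 libraries, Tra2a and Hnrnpa2b1 among them. A fractional count arises where RSEM divides a read between genes, and how many reads these genes shared, and with which others, was not measured.

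**Figure D4:**
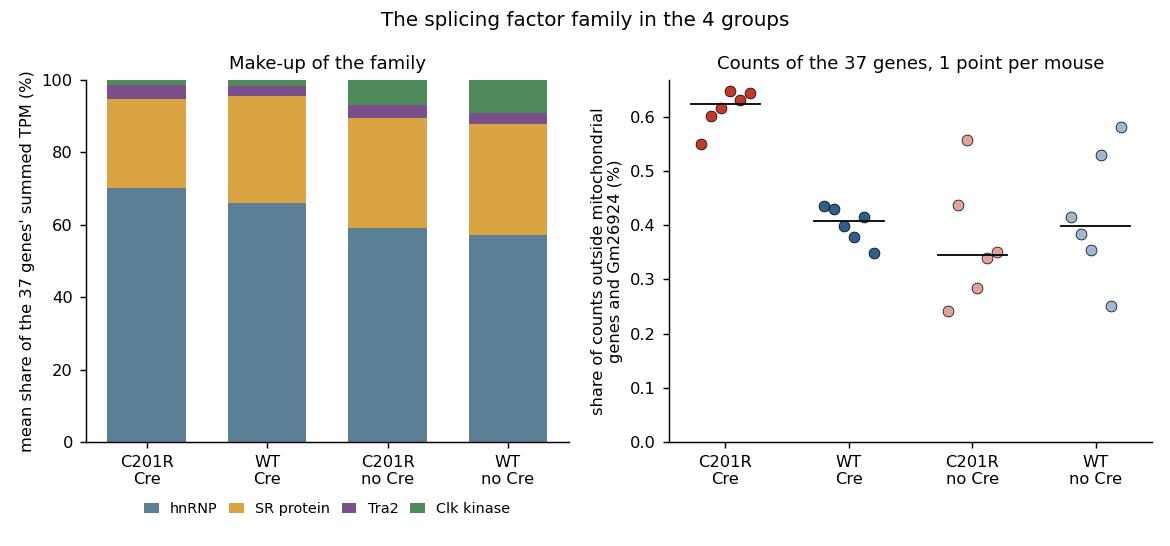
Left panel, mean share of the 37 genes' summed TPM (%) taken by hnRNP, SR, Tra2 and Clk genes in the 4 groups of 6 mice; right panel, share of counts outside mitochondrial genes and Gm26924 (%) taken by the 37 genes, 1 point per mouse with a bar at the median. The Clk share is 1.29 and 1.74% with Cre against 7.17 and 9.17% without, and the C201R mice with Cre sit between 0.549 and 0.648%, above all WT mice with Cre.

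The deposited length of a gene is the mean of its transcripts' lengths weighted by their estimated abundance, so it moves when the mix of transcripts moves. Between C201R and WT no member's length was called, with Cre (30 members measured) or without (32 members), where 0% of the 7120 and 0% of the 7136 genes tested were called in either direction. With Cre 2 members had an unadjusted p under 0.05, beside 391 genes in all, and without Cre 1 member, beside 263. That member was Srsf1, with 1859, 2068 and 2703 bases (lowest, median and highest) in C201R mice without Cre, against 1426, 1738 and 1847 bases in WT mice without Cre. Its groups did not overlap there, with a log2 change of 0.34 ± 0.07 (limma adjusted p = 1.00). The share of all genes whose lengths did not overlap between the genotypes was not taken, so this does not set Srsf1 apart from other genes. Between Cre and no Cre, 3 of 30 members were called in C201R mice, 1 longer and 2 shorter, where 2.96% of 6529 genes were longer and 3.34% shorter. In WT mice 6 of 32 were called, 4 longer and 2 shorter, where 5.23% of 7347 genes were longer and 5.21% shorter.

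Srsf5 was called in both genotypes. Its lowest, median and highest lengths were 1275, 1352 and 1461 bases in C201R mice with Cre, against 1730, 1894 and 2163 bases in C201R mice without Cre (log2 change -0.49 ± 0.06, limma adjusted p = 0.0034). In WT mice they were 1324, 1332 and 1474 bases with Cre, against 1817, 1948 and 1976 bases without Cre (-0.52 ± 0.03, limma adjusted p = 1.5e-05), and neither genotype showed overlap. The share of all genes whose lengths did not overlap between Cre and no Cre was not taken. In GENCODE M21 the 5 protein-coding transcripts of Srsf5 among those in the files span 1489 to 1568 bases, and the 3 with a retained intron 2720 to 3482 bases. Its 3 processed transcripts have 489 to 886 bases and its nonsense-mediated-decay transcript 547. Which of these transcripts moved the length was not tested. Hnrnpu, the scaffold-attachment hnRNP, was longer with Cre in both genotypes, with medians of 3563 bases with and 2672 bases without Cre in C201R mice (0.42 ± 0.05, limma adjusted p = 0.0021) and 3426 and 2607 bases in WT mice (0.45 ± 0.07, limma adjusted p = 0.0042); in GENCODE M21 its coding transcript has 7640 bases, its nonsense-mediated-decay transcript 2844, its processed transcript 869 and its 3 retained-intron transcripts 673 to 923. The third in C201R mice was Hnrnpd, shorter by a log2 change of -0.42 ± 0.08 (limma adjusted p = 0.013). The others in WT mice were Srsf1 (0.72 ± 0.10, limma adjusted p = 0.0025), Hnrnpdl (0.28 ± 0.04, limma adjusted p = 0.0038), Srsf11 (0.20 ± 0.05, limma adjusted p = 0.043) and Hnrnpr (-0.59 ± 0.13, limma adjusted p = 0.022). With the mouse number prefix as a block 1 of the 6 remained called in WT mice, and without mouse 14003-1, 6 members were called in C201R mice. That library had the shortest length of its group in 23 of the 32 members with several transcripts, and its median length over 6400 genes was 2326 bases, against 2457 to 2779 bases in the other 5 C201R mice with Cre. GENCODE M21 is not the annotation behind the files: of 24052 genes with 1 transcript, 75.9% have the same length in both.

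**Figure D5:**
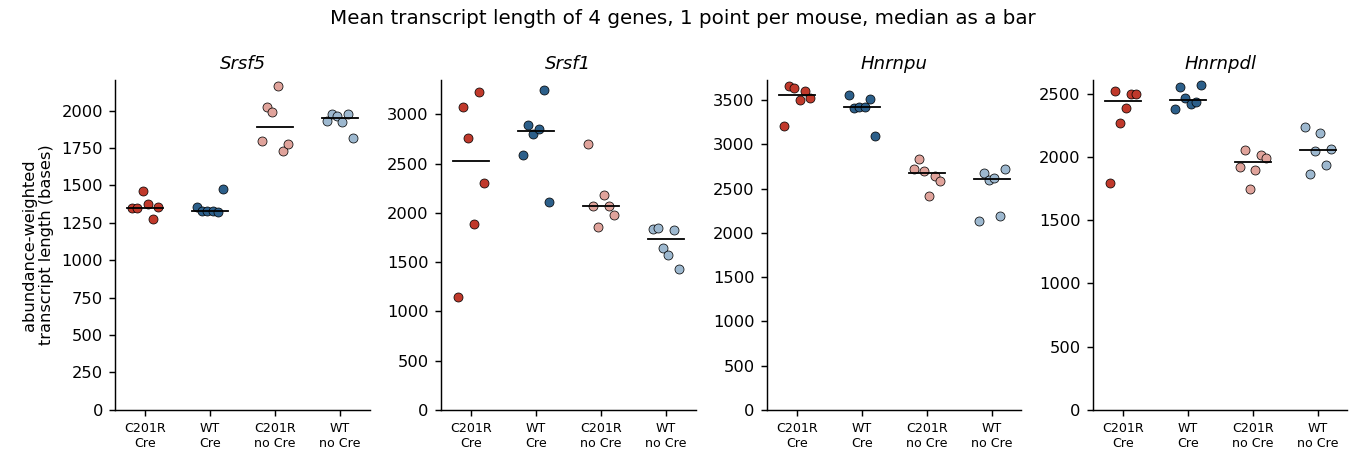
Abundance-weighted transcript length (bases, y axis from 0) of Srsf5, Srsf1, Hnrnpu and Hnrnpdl, 1 point per mouse with a bar at the median, in the 4 groups. Srsf5 is shorter and Hnrnpu longer in both Cre groups than in both groups without Cre, and in these 2 genes the C201R and WT points overlap within each pair. In Srsf1 the C201R points without Cre (1859 to 2703 bases) lie above the WT points without Cre (1426 to 1847 bases), and that length difference was not called.

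Other splicing genes were counted by lists set beside the members. Between C201R and WT with Cre, 2.29% of the 14634 genes tested rose and 1.82% fell, and the list counts stand beside these shares. The list of hnRNP proteins with other names was drawn broadly and takes in related RNA-binding proteins such as Fubp1 and Ewsr1. Of its 19 genes, 3 rose in C201R against WT with Cre and none fell (median 0.20). They were Fubp1 (0.95 ± 0.15, edgeR adjusted p = 0.0023), Ewsr1 (0.84 ± 0.17, edgeR adjusted p = 0.015) and Tardbp (0.64 ± 0.14, edgeR adjusted p = 0.022). TDP-43, the product of Tardbp, is mutated in some forms of amyotrophic lateral sclerosis. Of 35 core spliceosome genes 5 rose and none fell (median 0.39), among them U2af1, a subunit of the factor that reads the 3′ splice site (1.01 ± 0.18, edgeR adjusted p = 0.0066), and Snrnp70, a protein of the particle that reads the 5′ splice site (1.03 ± 0.24, edgeR adjusted p = 0.03). None of the 24 measured SR-related proteins and SR kinases was called (median 0.03). Of 26 neuronal splicing regulators 1 was called, Rbfox3, the gene of the neuronal marker NeuN, which fell by 1.12 ± 0.24 (edgeR adjusted p = 0.02). Of 15 genes of nonsense-mediated decay 1 rose, the exon junction protein gene Rbm8a (0.97 ± 0.13, edgeR adjusted p = 8.6e-04). Without Cre, and in the interaction, no gene of these 5 lists was called. Between Cre and no Cre in C201R mice, where 30.5% of all genes were higher and 26.3% lower, the lists divided as follows. Of the core spliceosome genes 25 rose and none fell, of the hnRNP proteins with other names 9 rose and 3 fell, and of the SR-related proteins and kinases 2 rose and 6 fell. Of the neuronal regulators 11 rose and 6 fell, and of the decay genes 4 rose and 3 fell. In WT mice, where 27.7% of all genes were higher and 32.8% lower, 14 core spliceosome genes rose and 7 fell, 7 hnRNP proteins with other names rose and 9 fell, and 2 SR-related genes rose and 11 fell. The neuronal regulators had 8 higher and 6 lower there, and the decay genes 6 higher and 3 lower.

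Markers of other cells were measured in the same libraries. With Cre, 8 of 9 listed cholinergic markers were measured, and their summed level was 949.8 to 1367 CPM in C201R mice and 858 to 1628 CPM in WT mice; Chodl, a marker of fast motor neurons, fell by 1.02 ± 0.14 (edgeR adjusted p = 6.3e-04) and the other 7 were not called. Without Cre the same 8 summed to 44.1 to 66.0 CPM in C201R mice and 50.6 to 255 CPM in WT mice. Oligodendrocyte markers summed to 556 to 834 CPM in C201R and 498 to 1105 CPM in WT mice with Cre, and to 5048 to 7700.3 CPM in C201R and 4763 to 8659.7 CPM in WT mice without Cre. Astrocyte markers summed to 334 to 554 CPM in C201R mice and 304 to 532 CPM in WT mice with Cre, and 1 of 8, Aldoc, was called (0.58 ± 0.15, edgeR adjusted p = 0.043). No microglia (5 measured), endothelial (6), erythroid (5) or other spinal neuron marker (8) was called between C201R and WT with Cre; the erythroid markers had a median log2 change of 1.21, with sums of 22.6 to 491 CPM in C201R mice and 26.0 to 182 CPM in WT mice. Their part in the results on splicing factors was not tested.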

How the data were processed

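Ribosome-bound RNA of 24 mouse spinal cords was sequenced, and the authors deposited per library RSEM gene tables with expected counts (estimated counts, with reads of several possible sources divided between genes), TPM values and each gene's abundance-weighted length, an other value in bases, per the file headers. Per the submitters' processing notes the tools included Bowtie2 2.2.0 and RSEM 1.2.12; which build and annotation they used is not given in the sources used here. Counts were rounded to whole numbers, and groups were compared with edgeR 4.0.16 (R 4.3.3) by quasi-likelihood F tests in robust mode, after filterByExpr and TMM scaling, with the library series as a term. Each comparison of 2 groups used its own 12 libraries and the interaction all 24; p-values were adjusted by Benjamini and Hochberg over all genes tested and called under 0.05. Log2 lengths were tested with limma 3.58.1 (trend, robust) in genes with an expected count of at least 10 in every library. CPM values shown were scaled by TMM over all 24 libraries. The procedure was tested on simulated data. DESeq2 1.42.0, limma-voom, other scalings, filters and terms, and leaving out each library were alternatives. The members, lists and tests were chosen with earlier results of these data known. One gene of the list of hnRNP proteins with other names was dropped from it and its counts, and is not reported here. Genes named with statistics were all called members of C201R against WT with Cre and of the interaction, the 6 highest and 6 lowest called members of each Cre comparison, the 4 of smallest p without Cre, and the called members of each length test; other named genes were chosen after their values were seen. Intervals from counts were not needed, and no 2 libraries of the same group agreed within counting noise. Pairs from different groups were not compared in this way.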

Additional observations from a re-analysis of the deposited data

Results flagged for a closer look

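Within each group of 6 mice, a value was picked out where its gap to the nearest other mouse, divided by the group's range, was above 0.625 (Dixon's test). 164 sets of 6 values were compared, 23 held such a value, and chance gives about 1 in 20.

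Among the libraries themselves, C201R mouse 14003-1 with Cre stood apart by its total of 12.1 M (12110691 counts) and its mitochondrial share of 15.8%. WT mouse 14701-9 with Cre stood apart by a mitochondrial share of 17.1% and a Gm26924 share of 30.8%. C201R mouse 14004-8 without Cre had a mitochondrial share of 35.2%, the lowest of its group. C201R mouse 14003-2 without Cre had a Gm26924 share of 7.60%, and WT mouse 14702-5 without Cre a total of 9.14 M counts.

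Among the splicing factors, C201R mouse 14003-1 with Cre was high in Srsf6 (60.7 CPM), Hnrnpf (49.1 CPM) and Srsf3 (146 CPM) and low in Clk4 (4.98 CPM). C201R mouse 14003-4 with Cre was low in Srsf1 (68.9 CPM) and high in Clk1 (17.04 CPM) and Srsf4 (38.6 CPM). WT mouse 14701-9 with Cre was high in Srsf6 (49.2 CPM) and low in Hnrnpul1 (9.81 CPM) and Srsf11 (23.997 CPM). Without Cre, C201R mouse 14003-2 was low in Clk1 (22.02 CPM) and Srsf11 (49.7 CPM), and C201R mouse 14004-8 was high in Hnrnpa1 (83.9 CPM) and Hnrnpm (69.96 CPM). WT mice without Cre stood apart in Srsf6 (51.8 CPM, mouse 14702-4) and Hnrnpul1 (34.1 CPM, mouse 14702-6).

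The genotype difference itself differed between pulldowns with and without Cre in Hnrnpa2b1 (log2 interaction 1.42) and Hnrnph1 (log2 interaction 1.31), by edgeR's test of the interaction.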

How the results depend on the processing

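For C201R against WT with Cre (12 members called), library totals alone gave 0, the Gm26924 covariate 5, and library series 1 alone, chosen after seeing the data, 0. Leaving out single libraries gave 7 to 13, and DESeq2 18. Calls over all genes went from 601 in the main fit to 1344 in DESeq2. With the mouse number prefix as a block, 5 members were called with Cre and 0 in the interaction (2 in the main fit). That block left 75 genes called in all with Cre and 6 in the interaction. The labels do not say that a prefix marks a litter. Deviations left after fitting genotype and library series were correlated between each C201R mouse and each WT mouse with Cre. Pairs of the same prefix had correlations of -0.36 to 0.16, and pairs of different prefix -0.60 to 0.66. Pairs of the same genotype were not measured, so whether mice of a prefix are alike was not settled. For the interaction, library totals alone, the Gm26924 covariate and series 2 alone gave 0, DESeq2 6, limma-voom 4, and leaving out single libraries 0 to 4. Over all genes DESeq2 called 115 and limma-voom 79, against 21 in the main fit. For Cre against no Cre in C201R mice, the Gm26924 covariate gave 10 members instead of 22, and 4602 genes in all instead of 8145. For length, the block left 1 of 6 members in WT mice; in C201R mice (3 members) an expected count of at least 50 gave 6, no series term 5, and dropping mouse 14003-1 gave 6. Among the genes called between C201R and WT with Cre or in the interaction, no change reversed sign under the alternatives run; in Cre against no Cre in WT mice, Hnrnpa2b1, Hnrnph3, Srsf5, Srsf4 and Hnrnpm changed sign under library totals alone. C201R against WT without Cre gave 0 members under every alternative run. The causes were not tested. The lowest expected count in any library was 6 for Srsf12 and 9 for Clk2, and counts this low limit the precision of those 2 genes.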
